A study of Mus musculus with 8 samples.

Results

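The genes described here are 10 genes of the proximal tubule of the kidney, megalin (Lrp2), cubilin (Cubn), amnionless (Amn), the adaptor Dab2 and the brush border peptidases Ggt1, Anpep, Dpep1, Enpep, Dpp4 and Mep1a. They were picked by symbol from the 54251 genes of the deposited expression table, and all 10 were found, 1 row each, and passed the filter on low values, as did 15607 genes in all. Whole kidneys of adult male C57BL/6 mice were measured in 4 groups with 2 libraries each, and each library pools RNA of 3 mice. WT was wild type, and KO was labelled as lacking G9a, the histone methyltransferase encoded by Ehmt2, in the kidney. WT_IR and KO_IR were kidneys of these genotypes after ischemia-reperfusion (IR), a clamp of 45 min on the left renal pedicle followed by harvest at day 3. The Cre line or other means of deletion is not given in the sources used here. The labels do not state whether the WT and KO libraries came from mice without surgery or from the uninjured kidney of operated mice.

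Proximal tubule cells take up filtered proteins with megalin and cubilin, large receptors of the apical membrane that bind albumin, vitamin carriers and many other ligands. Cubilin has no membrane-spanning part of its own and is held at the surface by amnionless, while Dab2 links the tail of megalin to the clathrin coat. The peptidases stand on the same microvilli with their active sites facing the filtrate, where they cut peptides and glutathione into pieces that transporters then carry into the cell. In a bulk sample of kidney, fewer cells of a type and less RNA per cell cannot be told apart.

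Each library held 14965670 to 17596690 fragments, recovered from the deposited FPKM. These are fragments per kilobase of gene, scaled in each library by a factor that is not its plain fragment total. The FPKM of all genes summed to 293646 and 298778 in the WT_IR libraries and to 362026 to 427188 in the others, and how this bears on the 10 genes is given with the changes. Ehmt2 measured 33.4 and 30.3 FPKM in WT and 28.1 and 26.4 in KO, and after IR 34.5 and 35.8 in wild type and 27.3 and 26.3 in knockout. It was lower in both knockout groups, but the change passed the test only after IR (limma, log2 change -0.38 ± 0.083 (SE), adjusted p = 0.0140), not without it (-0.22 ± 0.083, adjusted p = 0.370), and a whole-gene value does not show a deleted exon. The defining markers of proximal tubule segments S1 and S2 (9 of 9) and S3 (8 of 8) were above 0 in every library, whereas 4 of 6 enterocyte markers, Fabp2, Lct, Sis and Alpi, were listed at 0 in at least 1 library. Every one of the 10 genes was counted with at least 1105 fragments in each library, and genes that overlap them in the annotation held at most 17.

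Levels are FPKM, which is per length, so that genes can be set side by side. In WT the order from high to low was Mep1a, Ggt1, Amn, Lrp2, Dpep1, Dab2, Anpep, Enpep, Cubn and Dpp4, and no neighbours in that order overlapped between their 2 libraries. WT_IR was the lowest of the 4 groups for each of the 10 genes by its mean. In WT_IR the order changed in its middle and lower part, where Dab2 stood above Lrp2 and Dpep1, Enpep above Anpep and Dpp4 above Cubn. The libraries of Dab2 and Dpep1 did not overlap there, while those of Dab2 and Lrp2, Enpep and Anpep, and Dpp4 and Cubn did. Within each WT_IR library, however, Dab2 was above Lrp2, Enpep above Anpep and Dpp4 above Cubn.

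**Figure D1:**
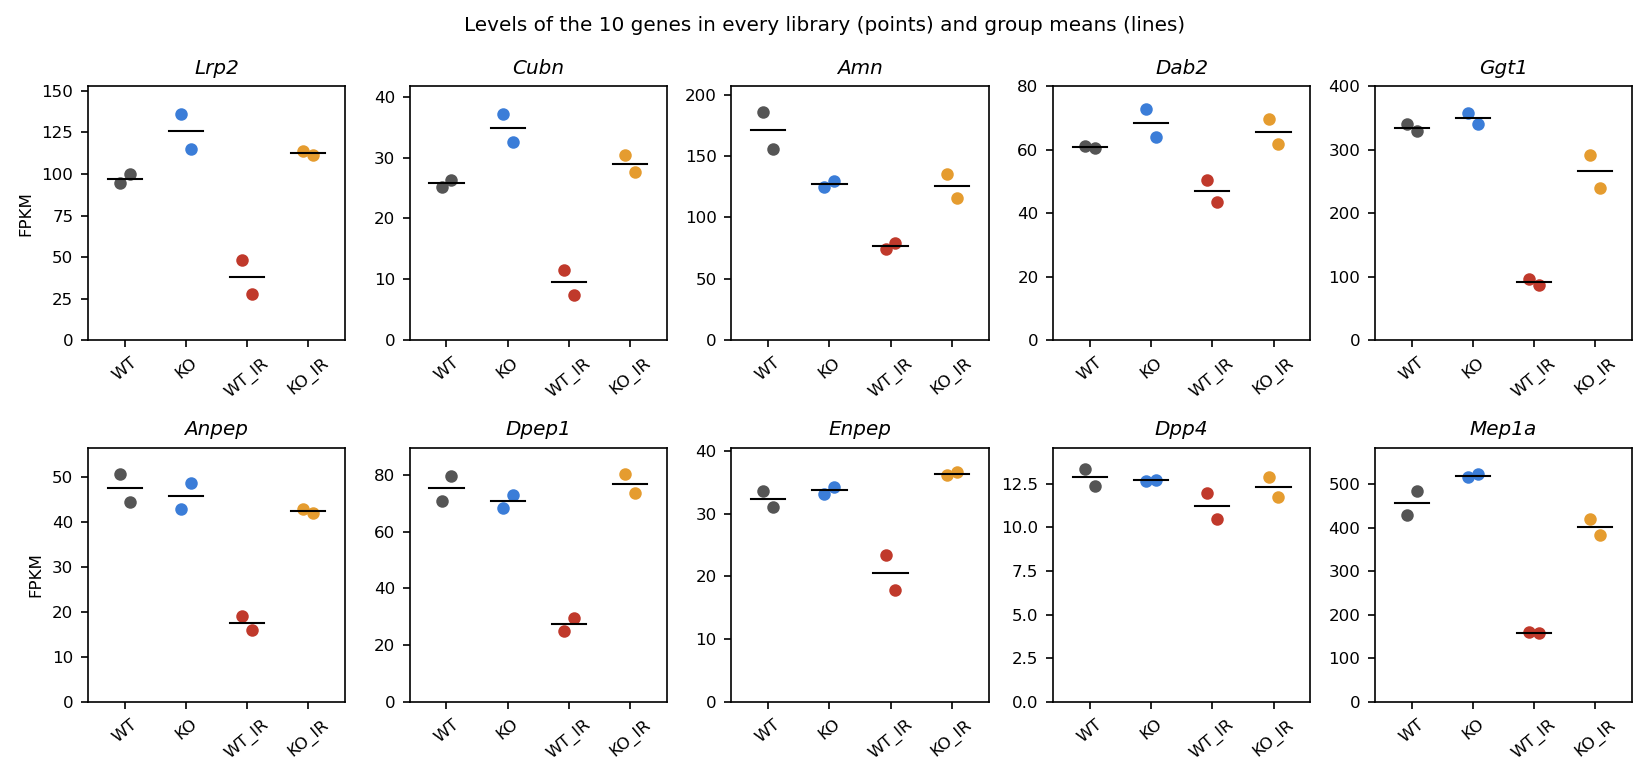
FPKM of the 10 genes (y axis, from 0, own scale per gene) in each of the 8 libraries (points) with the group mean (line) for WT, KO, WT_IR and KO_IR. Both WT_IR points lie below all other points in 9 of the 10 panels, and in Dpp4 the higher WT_IR library, at 12.0, lies above the lower KO_IR library, at 11.7.

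Megalin, the receptor that also carries cubilin into the cell, lies on the minus strand of chromosome 2 (69424340 to 69586065, GRCm38). Lrp2 (ENSMUSG00000027070) measured 94.5 and 99.9 FPKM in WT, 136 and 115 in KO, and with IR 48.4 and 27.6 in WT_IR against 114 and 111 in KO_IR. The WT_IR libraries were the lowest and, on the log2 scale, also the farthest from each other, and the KO_IR libraries were above those of WT. In WT_IR the mean was 39.1% of that in WT, a log2 change of -1.38 ± 0.23 (adjusted p = 0.00290), and KO_IR exceeded WT_IR by 1.59 ± 0.23 (adjusted p = 0.00296).

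Cubilin, the receptor for intrinsic factor with vitamin B12, lies on the same chromosome and strand (13276338 to 13491813). Cubn (ENSMUSG00000026726) measured 25.2 and 26.3 FPKM in WT, 37.2 and 32.6 in KO, and with IR 11.5 and 7.49 in WT_IR against 30.5 and 27.6 in KO_IR. It followed the order of Lrp2 across the groups, with both WT_IR libraries low and all other libraries above them. The log2 change was -1.37 ± 0.18 in WT_IR against WT (adjusted p = 0.000895), and KO_IR exceeded WT_IR by 1.54 ± 0.18 (adjusted p = 0.00130).

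Both receptor genes are long, 16701 bases for Lrp2 and 14935 for Cubn, and the WT_IR libraries differed most in these members. Replicate 2 was below replicate 1 by 0.79 (log2) for Lrp2 and 0.56 for Cubn, against 0.083 for the median of the 1097 tested genes over 10 kb. The other 8 genes differed by between -0.37 and 0.23 between the same libraries. The part of RNA quality in this gap was not tested.

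The sequences upstream of the receptors are shown because their log2 profiles over the 8 libraries, each centred on its own mean, were the closest of any pair among the 10 genes, while these stretches differ in composition. They are the 250 bases before the RefSeq start (GRCm38.p6, strand of the gene, 5′ to 3′), Lrp2 at chr2:69586030-69586279 and Cubn at chr2:13491877-13492126, and capitals mark a match to CAAAGTNCA, the core of a binding motif of HNF4, a regulator of proximal tubule genes.
Lrp2: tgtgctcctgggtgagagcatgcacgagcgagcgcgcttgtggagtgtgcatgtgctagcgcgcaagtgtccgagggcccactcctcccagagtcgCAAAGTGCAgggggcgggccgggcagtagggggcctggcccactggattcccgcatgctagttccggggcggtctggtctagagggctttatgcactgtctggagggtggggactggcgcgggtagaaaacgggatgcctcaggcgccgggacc
Cubn: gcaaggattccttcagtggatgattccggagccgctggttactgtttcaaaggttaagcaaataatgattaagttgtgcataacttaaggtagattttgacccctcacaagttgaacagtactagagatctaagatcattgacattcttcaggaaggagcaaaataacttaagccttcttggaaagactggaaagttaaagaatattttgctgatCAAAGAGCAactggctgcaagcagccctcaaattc
The stretch of Lrp2 has a GC content of 66.4% with 18 CpG, and that of Cubn 39.6% with 2, where 250 bases before all 32851 RefSeq starts have a median of 52.4% and 6. The capitals in Lrp2 are an exact match, at -154 to -146 from the start, and those in Cubn have 1 mismatch, at -35 to -27. Windows from 250 bases before to 50 after the start were searched on both strands at the 14 RefSeq starts of the 10 genes. An exact match was present in 1 of 14 and in 1.41% of all windows, and a match with up to 1 mismatch in 8 of 14, of 5 genes, and in 22.9% of all. GTTAAT, a half-site of HNF1, was present in 1 of 14 windows, that of Dab2, and in 7.10% of all, while the full HNF1 site, which is GTTAAT, then N, then the reverse complement of GTTAAT, was in 0 of 14 with up to 2 mismatches allowed and in 1.36% of all. TATAAA was in 3 of 14 windows and in 13.6% of all. These matches describe letters only and overlap one another where a motif is contained in a looser form of it.

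Amnionless, the membrane anchor of cubilin, is a short gene on chromosome 12 (111271095 to 111276426, plus strand). Amn (ENSMUSG00000021278) measured 186 and 156 FPKM in WT, 125 and 130 in KO, and with IR 74.5 and 79.5 in WT_IR against 135 and 116 in KO_IR. WT was the highest group here, both KO libraries lay below it, and WT_IR lay below all. It fell by 1.14 ± 0.12 in WT_IR against WT (log2, adjusted p = 0.000407) and was higher in KO_IR than in WT_IR by 0.69 ± 0.12 (adjusted p = 0.00587), the smallest such difference of the 3 receptor genes.

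Dab2, the clathrin adaptor of megalin, lies on chromosome 15 (6299788 to 6440712, plus strand). Dab2 (ENSMUSG00000022150) measured 61.1 and 60.5 FPKM in WT, 72.6 and 64.1 in KO, and with IR 50.5 and 43.6 in WT_IR against 69.5 and 61.7 in KO_IR. The WT_IR libraries were below all others by a narrow margin, and the KO_IR libraries were above those of WT. WT_IR differed from WT by a log2 change of -0.37 ± 0.11 (adjusted p = 0.0334). KO_IR exceeded WT_IR by 0.47 ± 0.11 (adjusted p = 0.0179). The change in WT ended as a call without any of WT replicate 1, WT replicate 2 or WT_IR replicate 2 (adjusted p up to 0.179), and that of KO_IR against WT_IR without WT_IR replicate 2 or KO_IR replicate 1.

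Among the peptidases Mep1a, the alpha subunit of the metalloprotease meprin, had the highest level, on chromosome 17 (43474324 to 43502812, minus strand). Mep1a (ENSMUSG00000023914) measured 429.9 and 485 FPKM in WT, 517 and 523 in KO, and with IR 161 and 157 in WT_IR against 421 and 385 in KO_IR. WT_IR stood far below the other groups and KO_IR just below WT. WT_IR was below WT with a log2 change of -1.51 ± 0.10 (adjusted p = 9.79e-05), and KO_IR exceeded WT_IR by 1.33 ± 0.10 (adjusted p = 0.000434).

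Gamma-glutamyltransferase 1, which starts the breakdown of filtered glutathione, lies on chromosome 10 (75561604 to 75586200, plus strand). Ggt1 (ENSMUSG00000006345) measured 341 and 329.5 FPKM in WT, 358 and 342 in KO, and with IR 96.8 and 87.6 in WT_IR against 292 and 240.3 in KO_IR. It fell furthest of the 10 genes, to 27.5% of the WT mean, and KO_IR lay between WT_IR and WT without overlap. The log2 change was -1.85 ± 0.12 in WT_IR against WT (adjusted p = 7.58e-05) and KO_IR exceeded WT_IR by 1.51 ± 0.12 (adjusted p = 0.000434).

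Dipeptidase 1, which splits the cysteinyl-glycine that gamma-glutamyltransferase leaves, lies on chromosome 8 (123186242 to 123201812, plus strand). Dpep1 (ENSMUSG00000019278) measured 70.7 and 79.7 FPKM in WT, 68.4 and 72.9 in KO, and with IR 25.1 and 29.7 in WT_IR against 80.2 and 73.4 in KO_IR. Here WT, KO and KO_IR were close together, with WT_IR alone far below. The log2 change was -1.43 ± 0.11 in WT_IR against WT (adjusted p = 0.000138), and KO_IR exceeded WT_IR by 1.46 ± 0.11 (adjusted p = 0.000432).

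Aminopeptidase N, which removes neutral residues from the ends of peptides, lies on chromosome 7 (79821803 to 79861059, minus strand). Anpep (ENSMUSG00000039062) measured 50.7 and 44.6 FPKM in WT, 42.9 and 48.7 in KO, and with IR 19.1 and 16.0 in WT_IR against 42.9 and 42.1 in KO_IR. WT and KO overlapped, KO_IR lay at their lower edge and WT_IR was far below. The log2 change was -1.40 ± 0.12 in WT_IR against WT (adjusted p = 0.000167), and KO_IR exceeded WT_IR by 1.24 ± 0.12 (adjusted p = 0.000656).

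Aminopeptidase A, which turns angiotensin II into angiotensin III, lies on chromosome 3 (129269175 to 129332720, minus strand). Enpep (ENSMUSG00000028024) measured 33.6 and 31.0 FPKM in WT, 33.1 and 34.3 in KO, and with IR 23.3 and 17.9 in WT_IR against 36.2 and 36.6 in KO_IR. Its KO_IR libraries were the highest of all 8, and WT_IR was the lowest. The log2 change was -0.63 ± 0.12 in WT_IR against WT (adjusted p = 0.00557), and KO_IR exceeded WT_IR by 0.80 ± 0.12 (adjusted p = 0.00358).

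Dipeptidyl peptidase 4, which trims incretins and other peptides and is abundant on kidney microvilli, lies on chromosome 2 (62330073 to 62412231, minus strand). Dpp4 (ENSMUSG00000035000) measured 13.3 and 12.4 FPKM in WT, 12.7 and 12.7 in KO, and with IR 12.0 and 10.5 in WT_IR against 12.9 and 11.7 in KO_IR. The groups lay close together, and WT_IR overlapped KO_IR. Its change in WT_IR against WT did not pass the test (log2 -0.18 ± 0.095, 95% interval -0.41 to 0.041, adjusted p = 0.168), nor did KO_IR against WT_IR (0.12, adjusted p = 0.375).

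In wild-type kidneys IR was thus followed by lower levels in 9 of the 10 genes by limma at an adjusted p under 0.05, all but Dpp4, where 23.2% of all tested genes were called lower. Their median log2 change was -1.38, and that of all tested genes -0.023. Both medians depend on the scale, and that of all tested genes was 0.43 on TPM. All 10 had WT_IR libraries below both WT libraries without overlap, as did 38.2% of all tested genes. The changes fell into a range from 27.5% of the WT mean for Ggt1 through 34.8% to 45.1% for Mep1a, Dpep1, Anpep, Cubn, Lrp2 and Amn to 63.8% for Enpep, 77.4% for Dab2 and 87.3% for Dpp4.

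In knockout kidneys IR, by the same clamp and harvest day, was followed by no call among the 10 genes (0 of 10 by limma and 0 by voom, with 1.03% of all tested genes called by limma). At an unadjusted p under 0.05 there were 2 of 10, beside 12.8% of all tested genes, the glutathione-cleaving Ggt1 (log2 -0.40, 95% interval -0.68 to -0.12, adjusted p = 0.211) and meprin Mep1a (-0.37, -0.62 to -0.12, adjusted p = 0.191). KO_IR libraries lay below both KO libraries in 5 genes (Lrp2, Cubn, Ggt1, Anpep and Mep1a), against 23.2% of all tested genes, and above them in Dpep1 and Enpep, against 20.2%. The median log2 change of the 10 was -0.081, and that of all tested genes -0.019. The intervals leave room for moderate change in single genes: for Lrp2 (-0.15) the interval was -0.70 to 0.40, and for Amn (-0.03) -0.31 to 0.26. The other log2 changes were -0.26 for Cubn, -0.10 for Anpep, -0.06 for Dab2, -0.04 for Dpp4, 0.11 for Enpep and 0.12 for Dpep1.

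The knockout without IR gave no call among the 10 genes either (0 of 10 by limma and by voom, with 0.218% of all tested genes called by limma). At an unadjusted p under 0.05 there were 2 of 10, beside 11.9% of all tested genes, Cubn at 0.42 (adjusted p = 0.416) and Amn at -0.42 (adjusted p = 0.266). The other log2 changes were 0.36 for Lrp2, 0.19 for Mep1a, 0.16 for Dab2, 0.06 for Ggt1 and Enpep, -0.02 for Dpp4, -0.06 for Anpep and -0.09 for Dpep1. The KO libraries lay above both WT libraries in Lrp2, Cubn, Dab2, Ggt1 and Mep1a, 5 of 10 against 21.2% of all tested genes, and below them in Amn, 1 of 10 against 21.8%. The median log2 change of the 10 was 0.061, beside -0.0043 for all tested genes.

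After IR, the knockout had higher levels than wild type in 9 of the 10 genes, all but Dpp4, where 16.6% of all tested genes were called higher. The median log2 difference was 1.29 beside -0.0077 for all tested genes, and KO_IR libraries were above both WT_IR libraries in 9 of 10, against 33.5% of all. Here too the medians depend on the scale, and that of all tested genes was -0.33 on TPM. This comparison and that of WT_IR with WT share the WT_IR libraries, so they are given side by side and not related to each other. The mean of KO_IR relative to that of WT ranged from 73.4% for Amn and 79.4% for Ggt1 to 113% for Cubn and Enpep and 116% for Lrp2.

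The responses of the genotypes were compared directly by their difference, (KO_IR minus KO) minus (WT_IR minus WT). It passed the test in 8 of 10 genes, each positive, where 9.62% of all tested genes passed in that direction. The difference was 1.54 ± 0.16 for Dpep1 (adjusted p = 0.00368), 1.45 ± 0.17 for Ggt1 (0.00430) and 1.29 ± 0.16 for Anpep (0.00527). For Mep1a it was 1.15 ± 0.15 (0.00554) and for Amn 1.11 ± 0.17 (0.00832). These 5 genes passed in each setting tried, with every library left out in turn. Lrp2 (1.23 ± 0.33, adjusted p = 0.0453), Cubn (1.12 ± 0.25, 0.0260) and Enpep (0.74 ± 0.17, 0.0306) lost the call when single libraries were left out, Lrp2 without any of WT replicate 1, WT replicate 2, KO replicate 1, KO replicate 2, KO_IR replicate 1 and KO_IR replicate 2 (adjusted p up to 0.136), Cubn without any of the same libraries except KO_IR replicate 2 (up to 0.0891), and Enpep without any library except WT_IR replicate 1 (up to 0.0940). These 3 genes also lost it on TPM and with no filter on low values, Enpep by voom (adjusted p = 0.0682) and Lrp2 without the trend (adjusted p = 0.0544). Dab2 (0.31 ± 0.16, 95% interval -0.061 to 0.68, adjusted p = 0.237) and Dpp4 (0.14 ± 0.13, -0.18 to 0.46, adjusted p = 0.535) did not pass. Set as a share of the change in WT, the change in KO was 24.4% for Mep1a, 21.5% for Ggt1, 18.7% for Cubn, 7.36% for Anpep and 2.24% for Amn, with Lrp2 between Cubn and Anpep, and in Dpep1 and Enpep it had the opposite sign.

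**Figure D2:**
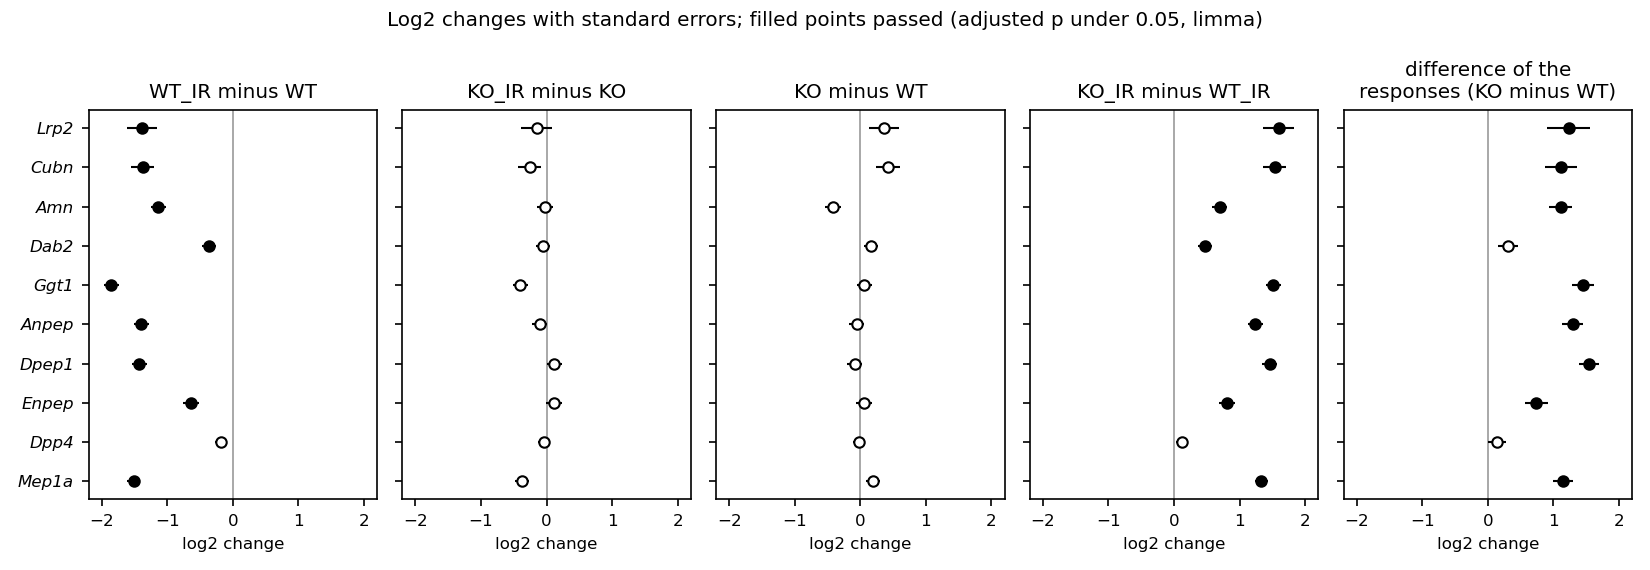
Log2 change (x axis) of each of the 10 genes in the 5 comparisons, with standard errors from limma and filled points for an adjusted p under 0.05. Filled points are 9 of 10 for WT_IR minus WT and for KO_IR minus WT_IR, 8 of 10 for the difference of the responses, and 0 of 10 for KO_IR minus KO and KO minus WT.

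The size of the changes in WT_IR depended on the scale. The deposited FPKM give every library the same median-of-ratios factor, whereas TPM, which sets every library to the same total, moves the median of all tested genes to 0.43 in WT_IR against WT and to -0.33 in KO_IR against WT_IR (log2). In WT_IR against WT the genes called were 2980 higher and 3616 lower on FPKM, 7486 and 1554 on TPM and 6331 and 1977 by voom on the recovered fragments. In KO_IR against WT_IR they were 2583 higher and 2106 lower on FPKM, 1432 and 5917 on TPM and 1682 and 5146 by voom. The difference of the responses gave 1502 positive and 1042 negative calls on FPKM, 745 and 3783 on TPM, where the median of all tested genes was -0.39, and 1059 and 2687 by voom.

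Of the 10 genes, 7 stayed called lower in WT_IR on all 3 scales, the receptors Lrp2, Cubn and Amn and the peptidases Ggt1, Anpep, Dpep1 and Mep1a. On TPM their log2 changes were between -1.35 for Ggt1 and -0.63 for Amn. Enpep lost the call, at -0.15 on TPM (adjusted p = 0.382) and -0.30 by voom (adjusted p = 0.0644). Dab2 turned to 0.14 on TPM (adjusted p = 0.285) and was -0.0098 by voom. Dpp4 turned to 0.31 on TPM and was called higher there (adjusted p = 0.0316), and was 0.16 by voom. In KO_IR against WT_IR 8 of 10 stayed called higher on TPM and by voom, from 0.34 for Amn and 0.47 for Enpep to 1.25 for Lrp2 and Cubn on TPM, with Dab2 losing its call and Dpp4 turning to -0.22 on TPM and -0.12 by voom.

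**Figure D3:**
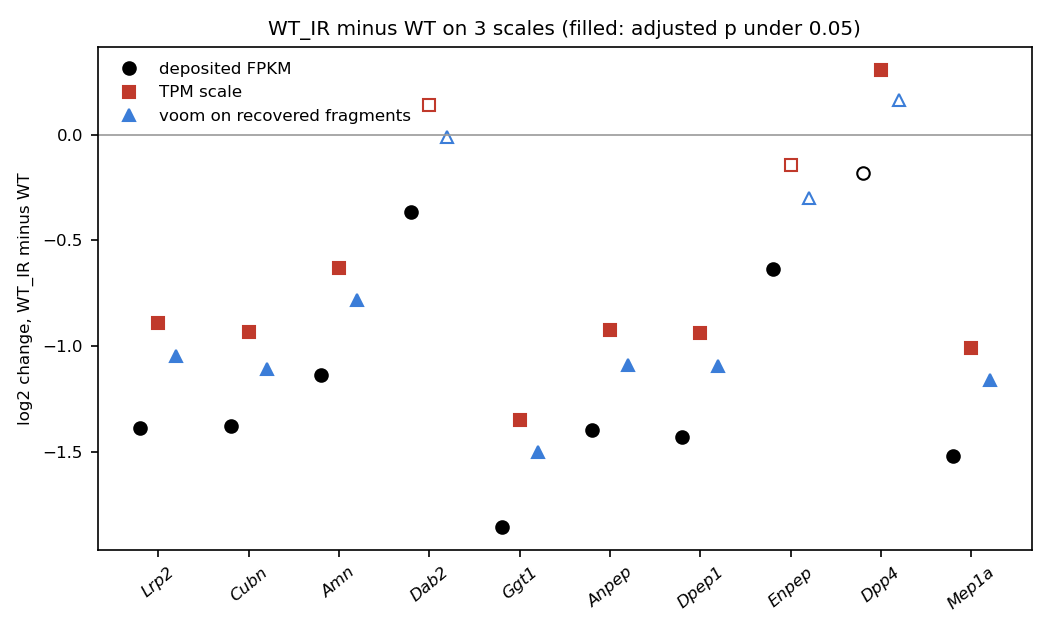
Log2 change of WT_IR minus WT (y axis) for the 10 genes (x axis) on deposited FPKM (circles), TPM (squares) and recovered fragments with voom (triangles), filled where the adjusted p was under 0.05. TPM and voom points lie above the FPKM points for each gene, 7 genes stay filled below 0 on all 3, and Dpp4 is filled above 0 on TPM.

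Ratios between genes within a library do not depend on its scaling. The FPKM ratio of megalin to cubilin was 3.76 and 3.79 in WT, 3.66 and 3.53 in KO, and with IR 4.19 and 3.69 in WT_IR against 3.74 and 4.03 in KO_IR. The WT_IR libraries enclosed the WT values, so this ratio did not separate these groups. The ratio of cubilin to its anchor amnionless was 0.135 and 0.169 in WT, 0.297 and 0.251 in KO, and with IR 0.155 and 0.0943 in WT_IR against 0.225 and 0.239 in KO_IR. All 4 knockout libraries lay above all 4 wild-type libraries in this ratio, with or without IR. Neither gene was called by limma in KO against WT (adjusted p = 0.416 for Cubn and 0.266 for Amn). How often other pairs of genes separate in this way was not examined. Cubn is 14935 bases long and Amn 1843, and the part of gene length was not tested.

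The adaptor stood higher relative to its receptor in injured wild-type kidneys. Dab2 over Lrp2 was 0.646 and 0.605 in WT, 0.534 and 0.557 in KO, and with IR 1.04 and 1.58 in WT_IR against 0.611 and 0.555 in KO_IR. The WT_IR values lay above all others, which stayed in a narrow range. Aminopeptidase N over aminopeptidase A was 1.51 and 1.44 in WT, 1.29 and 1.42 in KO, and with IR 0.817 and 0.893 in WT_IR against 1.19 and 1.15 in KO_IR, with both WT_IR libraries lowest. Ggt1 over Dpep1, the successive enzymes of glutathione breakdown, was 4.82 and 4.13 in WT, 5.23 and 4.69 in KO, and with IR 3.85 and 2.95 in WT_IR against 3.64 and 3.27 in KO_IR. Both injured groups lay below both uninjured groups in that ratio.

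**Figure D4:**
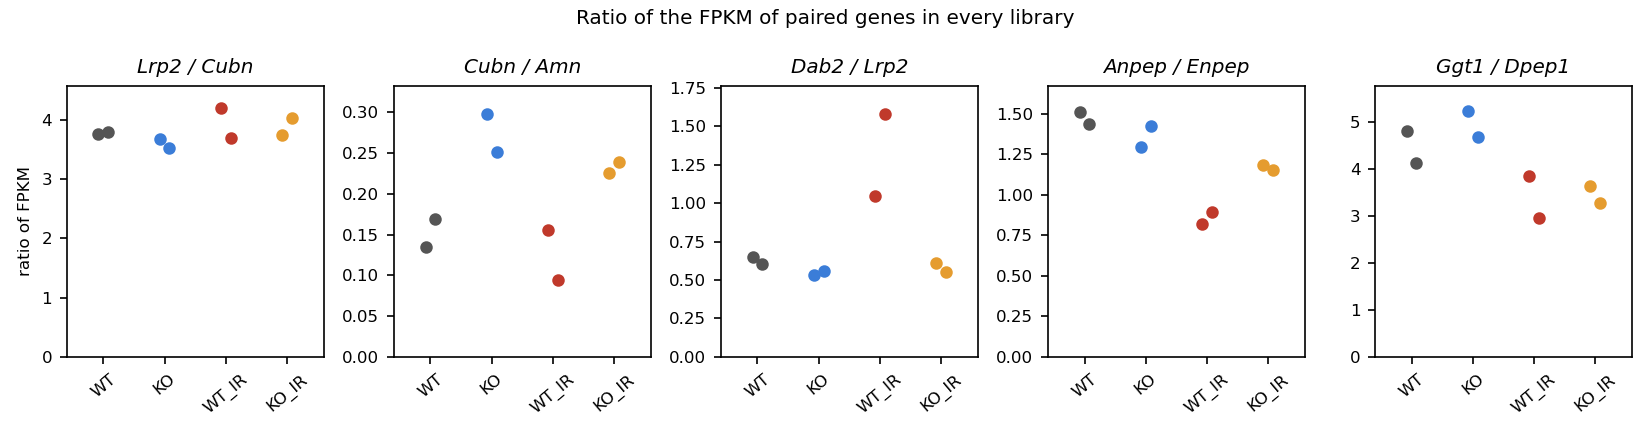
Ratio of the FPKM of paired genes (y axis, from 0) in each of the 8 libraries. Dab2 over Lrp2 is above 1 in the WT_IR libraries alone, and Cubn over Amn is at 0.225 or more in the 4 knockout libraries and at 0.169 or less in the 4 wild-type libraries.

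Genes of the same functions were read from lists chosen for this tissue, and the counts are of tested genes called by limma on the deposited FPKM. Beside them stand 19.1% of all tested genes called higher and 23.2% lower in WT_IR against WT, and 16.6% higher and 13.5% lower in KO_IR against WT_IR. Counts on TPM stand beside other numbers. Of all 15607 tested genes, 7486 were called higher and 1554 lower on TPM in WT_IR against WT. In KO_IR against WT_IR they were 1432 and 5917. Of 14 other brush border peptidases and hydrolases, 8 were lower and 4 higher in WT_IR than in WT (median log2 change -0.64), and 5 and 5 on TPM. The lower ones included meprin beta Mep1b, from 51.3 ± 2.54 to 12.3 ± 1.51 FPKM (SD, n = 2, log2 -1.98 ± 0.12, adjusted p = 7.2e-05), collectrin Tmem27, from 703 ± 18.0 to 246 ± 4.49 (-1.51 ± 0.10, 8.74e-05), and the angiotensin-converting enzyme Ace, from 40.4 ± 2.26 to 18.0 ± 2.43 (-1.13 ± 0.11, 0.000334). The higher ones were Ggt5, Ggt7, Erap1 and Lnpep, of which Erap1 and Lnpep are aminopeptidases of intracellular compartments. KO_IR had 8 of them higher and 3 lower than WT_IR, with Mep1b at 1.88, Tmem27 at 1.42 and Ace at 0.87, and 6 and 4 on TPM.

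The partners of megalin and cubilin in endocytosis include clathrin, its adaptors and early endosome proteins. Of 28 tested, 6 were lower and 3 higher in WT_IR than in WT (median -0.05). Lrpap1, the chaperone that escorts megalin through the secretory pathway, fell from 133 ± 6.11 to 53.9 ± 8.43 FPKM (log2 -1.30 ± 0.12, adjusted p = 0.000252) and was higher in KO_IR than in WT_IR by 1.05 ± 0.12 (adjusted p = 0.00136). The clathrin light chain Cltb fell by 0.75 ± 0.094 on the log2 scale (adjusted p = 0.000796), a call that ended on TPM. The adaptor subunit Ap2b1 rose by 0.55 ± 0.096 (adjusted p = 0.00344), and the endosomal Appl1 and Snx5 were also called higher. Against WT_IR, KO_IR had 5 higher and 3 lower. The direction of this list turned with the scale: on TPM 18 were higher and 1 lower in WT_IR, and 1 higher and 15 lower in KO_IR against WT_IR. All tested genes turned in the same way. On TPM the list median was 0.46 in WT_IR against WT, beside 0.43 for all tested genes. In KO_IR against WT_IR it was -0.39 beside -0.33.

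Microvillus structure genes were lower in 10 and higher in 2 of 18 (median -0.47) in WT_IR against WT, and 4 and 4 on TPM. The scaffold proteins Pdzd3 (-1.30) and Ush1c (-0.91) and the membrane protein Prom2 (-1.21) were called lower, and ezrin Ezr, which ties actin to the membrane, and Muc1 were called higher. Between the injured groups 9 were higher and 1 lower in KO_IR, and 4 and 2 on TPM. Genes that handle ligands and vitamins were lower in 8 and higher in 1 of 12 in WT_IR (median -0.68; 6 and 2 on TPM), with the B12 carrier Tcn2 at 251 ± 16.7 FPKM beside 948 ± 52.7 in WT and Ttr, the thyroxine carrier, at 9.79 ± 1.52 beside 174 ± 6.32. Gc, the vitamin D binding protein and a ligand of megalin, was the one called higher, at 104 ± 6.36 FPKM in WT_IR beside 30.5 ± 5.31 in WT and 55.6 ± 3.30 in KO_IR. Between KO_IR and WT_IR 6 of the 12 were higher and 1, Gc, lower, and 3 and 2 on TPM.

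Transporters that take up the products of the peptidases were lower in 9 of 10 in WT_IR against WT (median -0.97; 7 on TPM), with Slc6a19, a carrier of neutral amino acids, at -2.32 ± 0.23 (adjusted p = 0.000328), and higher in 8 of 10 in KO_IR against WT_IR (8 on TPM). Cytosolic enzymes of peptide and gamma-glutamyl breakdown were lower in 9 of 12 (median -0.87, with 7 lower and 1 higher on TPM), among them glutathione synthetase Gss (-1.02). They were higher in 9 of 12 in KO_IR against WT_IR (7 higher and 1 lower on TPM). Of 11 transcription regulators of the proximal tubule 7 were lower in WT_IR and 1, Pparg, higher (median -0.78, with 5 and 1 on TPM). Hnf4a was at 226 ± 3.93 FPKM in WT, 93.1 ± 8.69 in WT_IR and 180 ± 3.6 in KO_IR. Of the 11, 7 were higher in KO_IR than in WT_IR (3 higher and 1 lower on TPM). Of 10 tested genes of the LDL receptor family other than Lrp2, 3 were lower and 1 higher in WT_IR (median -0.18; 0 and 3 on TPM), and the higher one was Lrp1, from 2.56 ± 0.781 to 11.6 ± 0.441 FPKM (log2 1.85 ± 0.16, adjusted p = 0.000204). Of the 115 genes of these 8 lists, 0 were called by limma in KO_IR against KO, with 14 (12.2%) at an unadjusted p under 0.05 beside 12.8% of all tested genes, and 0 in KO against WT, with 15 (13%) beside 11.9%, and voom called 0 in both.

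**Figure D5:**
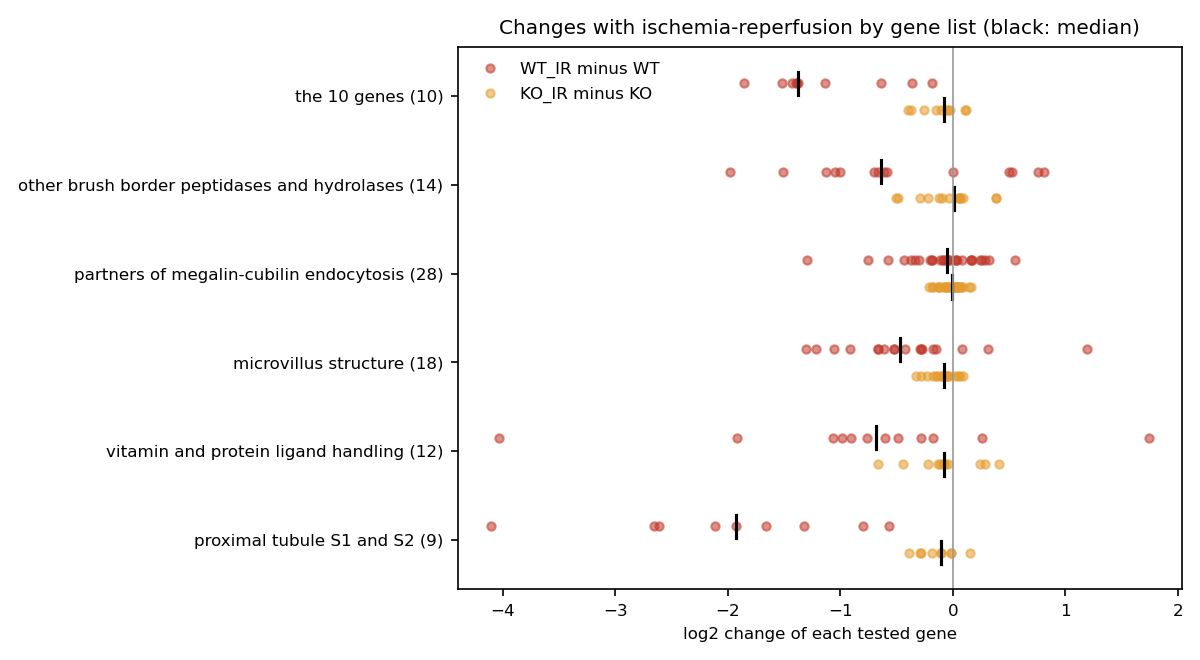
Log2 change on deposited FPKM (x axis) of each tested gene in the list (points) for WT_IR minus WT and KO_IR minus KO, with the list median (black), and the number of genes in brackets. Medians of WT_IR minus WT run from -1.93 for the S1 and S2 markers and -1.38 for the 10 genes to -0.05 for the endocytosis partners.

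Markers of several cell types moved with the 10 genes, and their part in the result was not tested. Summed FPKM of the 9 markers of S1 and S2 was 2030 to 2401 in WT, 2309 to 2417 in KO, 445 to 649 in WT_IR and 2061 to 2208 in KO_IR, and 9 of 9 were called lower in WT_IR (6 on TPM). Markers of S3 were called lower in 8 of 8 (6 on TPM) and of the thick ascending limb in 4 of 5 (3 on TPM). Those of the distal convoluted tubule were lower in 4 of 4 (3 on TPM), and of podocytes in 3 of 6 with 1 higher (0 and 1 on TPM). Macrophage and monocyte markers summed to 53.9 to 56.5 FPKM in WT, 66.5 to 102 in KO, 542 to 555 in WT_IR and 219 to 285 in KO_IR, and 10 of 10 were called higher in WT_IR. Fibroblast and pericyte markers summed to 13.5 to 19.9, 19.3 to 24.9, 260 to 289 and 106 to 110 in the same order, with 8 of 8 called higher. Of the other lists, 8 of 8 tubular injury genes, 4 of 4 tested genes of T and NK cells and 4 of 6 of endothelium (1 lower) were called higher in WT_IR, and 1 of 2 tested enterocyte markers lower. Against WT_IR, in KO_IR the injury genes were lower in 8 of 8, macrophage markers in 8 of 10, fibroblast markers in 5 of 8 and T and NK cell markers in 3 of 4. Higher there were 9 of 9 markers of S1 and S2, 5 of 8 of S3 with 1 lower, and 3 each of the thick ascending limb, the distal convoluted tubule and podocytes, beside 1 each of endothelium and enterocytes, but on TPM podocytes had 0 higher and 1 lower, endothelium 0 higher and 4 lower, and enterocytes 0 of either. In KO_IR against KO, 4 of 8 injury, 5 of 10 macrophage and 4 of 8 fibroblast genes were called higher, beside 148 of all 15607 tested genes. Called lower were 1 of 8 S3 genes, Cyp7b1, and 1 of 4 of the distal convoluted tubule, Pvalb, beside 12 of all. When only the groups compared were fitted, 0 of all 15607 tested genes were called higher and 0 lower in KO_IR against KO. Each of these marker calls, in either direction, therefore ended in that setting. The call of Pvalb ended on TPM (limma, adjusted p = 0.117) and by voom (adjusted p = 0.0728), and Pvalb was at 0 in at least 1 library.

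Each of the 10 genes was also set against all 15607 tested genes by the root mean square difference of log2 profiles centred on their mean over the 8 libraries, as a description in which the genes share libraries and depth. Lrp2 and Cubn were each other's closest gene of all (0.074 on the log2 scale). Mep1a was closest to the fructose transporter gene Slc2a5 (0.054), followed by Abhd3 and Bphl. Ggt1 was closest to Gcdh (0.050), an enzyme of lysine breakdown, followed by Akr1d1 and Thnsl2. The closest gene to Dpep1 was Tmem27 (0.074), the collectrin of the brush border list. Amn was closest to Erich4 (0.056), Chchd2 and Atp5h, the last 2 of mitochondria, and Anpep to Ecsit (0.055). Many other genes were about as near: within a small distance, the same for all 10, lay 230 genes for Amn and 128 for Anpep. For Lrp2 that number was 4. For Dab2 the closest was Ctbs (0.046), for Enpep F5 (0.061) and for Dpp4 Fam114a2 (0.035), where flat profiles give small differences. Among the 10 themselves Mep1a and Ggt1 came next after the receptor pair (0.14), and Dpp4 and Ggt1 were the least alike (0.71).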

How the data were processed

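RNA of kidneys in 8 libraries was selected for polyadenylated RNA per the labels' protocols. The authors deposited FPKM per gene with gene lengths, aligned with HISAT2 2.0.5 to mm10 (GRCm38.p6) per the submitters' processing notes; which counting tool and annotation release they used is not stated there. In each library 100% of the values, multiplied by gene length, were whole multiples of what 1 fragment is worth (tolerance 1e-06), so fragments were recovered; the implied denominator was 1.18 and 1.19 times the total of fragments in WT_IR and 0.921 to 1.03 times in the other libraries, so a further scaling is in the deposited values. A floor of 3 fragments on a gene of 1 kb corresponds to 0.148 to 0.206 FPKM (counting error only).

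Genes whose mean reached 0.5 FPKM were fitted with limma 3.58.1 (R 4.3.3) on log2(FPKM + 1), by group means and with its trend option (4 residual and 3.04 prior degrees of freedom). Fold changes are on that log2 scale, with standard errors. P-values were adjusted by Benjamini-Hochberg over all 15607 tested genes in each of 5 comparisons, with a threshold of 0.05. The replicate number was not used as a pairing. The labels do not say whether pools share mice or days, so p-values measure the spread between pools. The fit was also run on simulated fragments scaled by plain totals, with few changed genes. That run lacks the further scaling of the deposited values, so it does not bear on the choice of scale.

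Named are all 10 genes, of each list the tested genes with the smallest p in WT_IR against WT or called against the majority, and for each of the 10 the genes with the closest profile. The genes and lists were chosen with earlier results of these data known. For 1 list gene, values are not reported here. The lists were 8 of pathways (other brush border peptidases and hydrolases, endocytosis partners, microvillus structure, ligand and vitamin handling, peptide and amino acid uptake, cytosolic peptide breakdown, LDL receptor family, transcription regulators) and 11 of cell markers. Promoters came from RefSeq (GRCm38.p6). Alternatives were pseudocounts of 0.1 and 5, no filter or a mean of at least 5 FPKM, TPM, voom on recovered fragments, no trend, only the groups compared, a replicate block and leaving out each library.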

Additional observations from a re-analysis of the deposited data

Results flagged for a closer look

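For 8 of the 10 genes the response to IR differed between the genotypes by the interaction term of limma, with the change in KO minus the change in WT above 0, as in 9.62% of all tested genes. This difference was 1.23 for Lrp2, 1.12 for Cubn and 1.11 for Amn, the receptor genes, and 1.45 for Ggt1, 1.29 for Anpep, 1.54 for Dpep1, 0.74 for Enpep and 1.15 for Mep1a, the peptidases (log2). Lrp2, Cubn and Enpep lost the call on TPM, with no filter and without most single libraries. Beside them, summed FPKM of the macrophage markers was 53.9 to 56.5 in WT and 542 to 555 in WT_IR, and 66.5 to 102 in KO and 219 to 285 in KO_IR. Their part in the difference was not tested.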

How the results depend on the processing

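The counts of the 10 genes called stayed within 1.5 times their value in every setting run, except for the difference of the responses, where 8 became 5 on TPM, 5 with no filter and 5 to 8 when each library was left out. With a replicate block the counts were 9, 0, 0, 9 and 8 (WT_IR against WT, KO_IR against KO, KO against WT, KO_IR against WT_IR, difference of the responses), as without it. The correlation of replicate differences between groups was from -0.12 to 0.16. With 1 difference per group, this cannot settle whether equal replicate numbers mark paired pools. Signs turned for small changes. In WT_IR against WT, Dab2 became 0.14 on TPM and Dpp4 0.31 on TPM and 0.16 by voom. In KO_IR against KO, Amn became 0.043 and 0.050, Dab2 0.0090 and 0.016, and Dpp4 0.020 and 0.028 on TPM and by voom, and leaving out libraries gave -0.14 to 0.088 for Amn, -0.15 to 0.030 for Dab2 and -0.11 to 0.019 for Dpp4. In KO against WT, Anpep became 0.027 on TPM and Dpp4 0.064 on TPM and 0.017 by voom, with -0.15 to 0.035 and -0.068 to 0.034 when libraries were left out. In KO_IR against WT_IR Dpp4 became -0.22 on TPM and -0.12 by voom. For the difference of the responses Dab2 became -0.13 on TPM and Dpp4 -0.28 on TPM and -0.13 by voom. TPM and voom undo the scaling in the deposited values. With 2 pools per group, a lone library left in a group was assumed to vary like the others, and small changes could not be resolved.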
